A study of Homo sapiens with 18 samples.

Results

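The kinetochore and spindle genes described here are 38 of the 58051 genes in the deposited tables, chosen by name: 10 genes of the centromeric nucleosome and the constitutive centromere network, 6 of the KNL1 and NDC80 network, 2 of the SKA complex, 8 of the corona and the spindle checkpoint, 4 of the chromosomal passenger complex, 2 mitotic kinases, 5 spindle motors and assembly factors, and MKI67. They were measured by RNA sequencing of polyadenylated RNA in 18 libraries of NCI-H460, an established large cell lung cancer line whose genotype is given as WT. The design set 2 populations resistant to decitabine (a DNA methyltransferase inhibitor) and all-trans retinoic acid (ATRA, a retinoic acid receptor ligand) beside the parental cells. The 6 groups, with 3 libraries labelled as biological replicates in each, were resistant 1, resistant 2 and parental cells given 2 µM ATRA with 50 µM decitabine, and resistant 1, resistant 2 and parental cells given DMSO at 0.7% (v/v). The decitabine concentration is printed as the labels give it, and whether its unit is right could not be settled from the files. Cells were treated 24 h after seeding and harvested at 72 h. How the resistant populations were selected, and whether either is a clone, is not given in the sources used here.

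The kinetochore is the protein assembly that joins each chromosome to spindle microtubules during mitosis. An inner layer sits on nucleosomes that carry the histone variant CENPA, an outer layer built on KNL1 and the NDC80 complex grips the microtubule, and the spindle checkpoint holds back CDC20 until every chromosome is attached. In dividing cells most of these genes are transcribed periodically, with RNA highest in G2 and mitosis, and many of their promoters carry a CHR element (cell cycle genes homology region) together with CCAAT boxes.

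The DMSO libraries held 116.9 to 140.9 M reads. The treated libraries held 115.7 to 179.5 M reads over genes with a restored value. All 38 members passed the low-value filter and had values in every library. Of the 6 epithelial markers looked up, KRT8, KRT18 and KRT19 were high in every DMSO library. Their list summed to 300035 to 436344 normalized counts in resistant 1, 137175 to 205657 in resistant 2 and 223221 to 269431 in parental cells. CDH1, the epithelial cadherin, lay between 0 and 2.17 normalized counts in every DMSO library, and EPCAM at 2.73 to 6.08 in both resistant populations, against 85.2 to 103 in parental cells. The immune list summed to 110 to 185 normalized counts in resistant 1, 132 to 214 in resistant 2 and 183 to 404 in parental cells. The endothelial list summed to 170 to 262 in resistant 1, 53.3 to 69.5 in resistant 2 and 65.1 to 88.8 in parental cells. Fibroblast markers, led by COL3A1 in parental and COL1A1 in resistant 2 cells, summed to 482 to 548 in resistant 1, 3483 to 4481 in resistant 2 and 8079 to 10045 in parental cells. Of the 5 above the filter, 4 were called lower and 1 higher in resistant 1 against parental cells, and 2 lower and 2 higher in resistant 2. Their part in the results was not tested. Within a group the members tended to be high or low together in particular libraries: resistant 2 replicate 3 held the highest value of its group for 34 of 38 members both with treatment and with DMSO, resistant 1 treated replicate 2 for 30, resistant 1 DMSO replicate 1 for 29 and parental DMSO replicate 1 for 26. Resistant 1 treated replicate 3 held the lowest value of its group for 33. The share over all genes was not counted, so a trait of these members cannot be told apart from a shift of the whole library.

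Under DMSO, kinetochore and spindle RNAs were lower in both resistant populations than in parental cells, and lower in resistant 2 than in resistant 1 for most members. In resistant 2 all 38 members fell, by log2 changes between -2.96 for HMMR and -0.34 for CENPC, with a median of -1.90 against 0.02 over all 21643 genes tested; 29.8% of those genes were called lower and 32.1% higher. In resistant 1, 35 members fell, none rose and 3 were not called, with a median of -1.28 against 0.01 over all genes, 26.6% of which were called lower and 29.3% higher. In that comparison AURKB had the lowest log2 change, -2.02, and CENPI the highest, 0.08. Both comparisons use the same 3 parental libraries. The calls are from limma with Benjamini-Hochberg adjustment over all genes, taken at an adjusted p under 0.05. In bulk RNA, fewer cells in mitosis and less of these RNAs per cell cannot be told apart.

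The spread between libraries was smaller than these differences for most members. Every resistant 2 library lay below every parental library for 38 of 38 members, and every resistant 1 library below every parental library for 36, where CENPI and CENPM overlapped; over all genes tested, 31% and 30.8% separated in that direction. Summed over the members, the level was 2129, 1971 and 1904 CPM (reads relative to library size, scaled over all 18 libraries) in resistant 1, 1078, 1190 and 1416 CPM in resistant 2, and 5074, 4326 and 4696 CPM in parental cells under DMSO. Single libraries decided 2 of the calls: SPC24 lost its call in resistant 1 without parental replicate 1 (log2 change -0.52, adjusted p = 0.0507), and CENPC lost its call in resistant 2 without parental replicate 1 or 3 or resistant 2 replicate 2 or 3 (adjusted p = 0.0831 to 0.124).

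**Figure D1:**
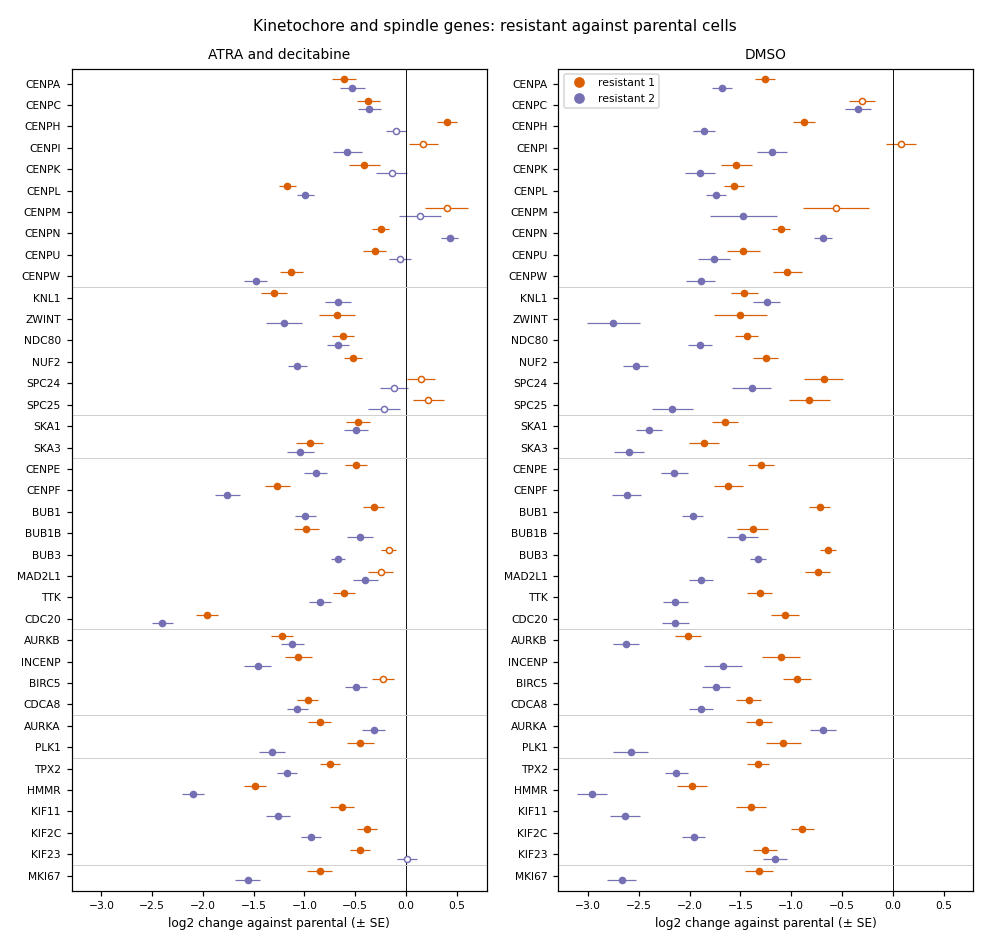
Log2 change of each of the 38 genes in resistant 1 (orange) and resistant 2 (purple) against parental cells, with ATRA and decitabine on the left and DMSO on the right; bars are ± SE, filled points are called by limma at an adjusted p under 0.05, and lines part the roles. Under DMSO all 38 resistant 2 points are filled and lie at -0.34 or below, while under ATRA and decitabine CENPH in resistant 1 (0.40) and CENPN in resistant 2 (0.43) are filled above 0.

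The promoters of the 3 members with the lowest and of 2 with the highest log2 change in resistant 2 against parental cells, among those with a RefSeq promoter entry, are printed to show the CHR and CCAAT elements that many of these genes share. Each line runs 5′ to 3′ on the gene's strand, from 120 bases before the RefSeq transcription start to 30 bases from the start on, in GRCh38.p14, with the CHR hexamers TTTGAA or (second form) TTTAAA and the box CCAAT in capitals on either strand. A copy on the opposite strand appears as TTCAAA for the first hexamer and as ATTGG for the box, while the second hexamer reads the same on both strands. HMMR lies at chr5:163460512-163460661 (+), ZWINT at chr10:56361230-56361379 (-), MKI67 at chr10:128126394-128126543 (-), CENPN at chr16:81007094-81007243 (+) and CENPC at chr4:67545474-67545623 (-).
HMMR: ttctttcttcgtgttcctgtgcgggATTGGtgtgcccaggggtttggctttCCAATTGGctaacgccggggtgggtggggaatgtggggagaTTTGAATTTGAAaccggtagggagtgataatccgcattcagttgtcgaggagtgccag
ZWINT: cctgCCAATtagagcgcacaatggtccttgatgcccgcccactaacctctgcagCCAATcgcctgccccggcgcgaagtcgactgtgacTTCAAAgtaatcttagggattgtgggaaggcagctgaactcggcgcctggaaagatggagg
MKI67: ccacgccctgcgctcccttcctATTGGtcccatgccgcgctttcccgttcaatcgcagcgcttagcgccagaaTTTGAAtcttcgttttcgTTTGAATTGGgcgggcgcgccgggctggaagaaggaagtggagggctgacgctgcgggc
CENPN: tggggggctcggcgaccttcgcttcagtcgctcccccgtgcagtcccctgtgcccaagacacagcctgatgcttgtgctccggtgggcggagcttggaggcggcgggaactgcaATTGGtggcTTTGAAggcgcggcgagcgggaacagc
CENPC: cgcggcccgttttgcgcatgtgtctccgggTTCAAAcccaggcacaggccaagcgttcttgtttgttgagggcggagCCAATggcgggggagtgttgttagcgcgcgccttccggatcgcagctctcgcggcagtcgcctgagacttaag

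The HMMR stretch holds adjoining copies of TTTGAA, beginning 28 and 22 bases before the start, and a CCAAT box on each strand that overlap in CCAATTGG. In MKI67 the second TTTGAA overlaps a CCAAT box on the opposite strand by its last base. In CENPN the hexamer begins 3 bases after the start, and in CENPC it begins 90 bases before it, on the opposite strand. RefSeq promoters (250 bases before the start and 50 from it on) matched 29 of the 38 members, with 31 promoters in all; CENPH, CENPL, CENPM, KNL1, BUB3, TTK, BIRC5, AURKA and TPX2 had no entry. A CHR hexamer occurred in 23 of the 31 (74.2%), against 24.0% of 35116 promoters in the table, and a CCAAT box in 74.2% against 34.6%. Both occurred in 51.6% of the member promoters and in 9.3% of all promoters. The 22 members with a CHR hexamer had a median log2 change of -2.15 in resistant 2 under DMSO (range -2.96 to -0.34), and the 7 members without (CENPI, CENPK, CENPU, CENPW, SPC24, BUB1 and AURKB) a median of -1.89 (range -2.63 to -1.19), so the ranges overlapped. A match of letters is a description of the sequence and shows no binding.

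**Figure D2:**
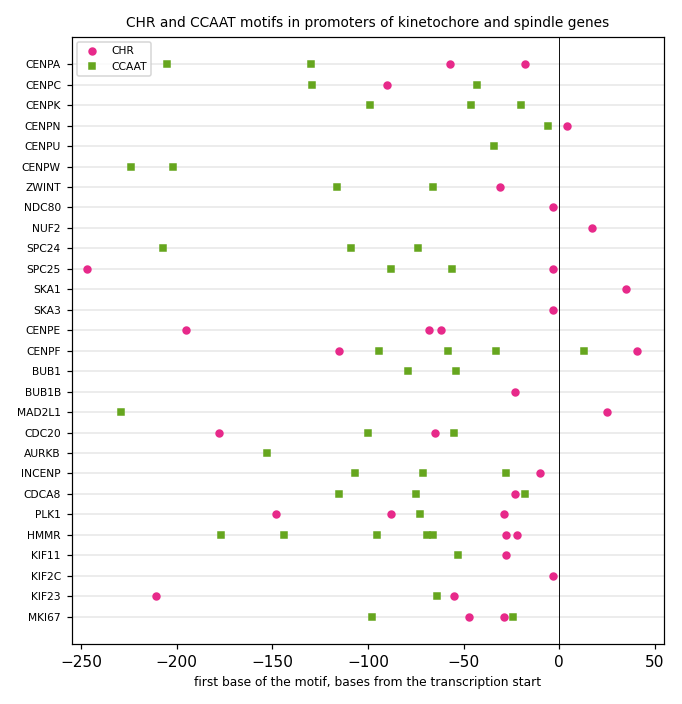
First base of each CHR hexamer (circles) and CCAAT box (squares) in bases from the RefSeq transcription start, for the first listed promoter of each member that holds either; the window runs from 250 bases before the start to 50 from it on. HMMR has adjoining CHR hexamers beginning 28 and 22 bases before the start, and AURKB and BUB1 show CCAAT boxes without a CHR hexamer.

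In the inner kinetochore, 10 of 10 genes fell in resistant 2 (median log2 change -1.71) and 7 of 10 in resistant 1 (median -1.07) under DMSO. CENPK, a subunit of the CENPH, CENPI, CENPK and CENPM subcomplex, had 2273, 2423 and 2138 normalized counts in resistant 1, 1407, 1784 and 2188 in resistant 2, against 6759, 5935 and 7175 in parental cells. All 6 resistant libraries lay below the parental ones. It fell by 1.90 on the log2 scale in resistant 2 (SE 0.149, adjusted p = 8.36e-07) and by 1.54 in resistant 1 (SE 0.149, adjusted p = 6.46e-06). CENPC, the rod-like protein that ties CENPA nucleosomes to the outer kinetochore, moved least in resistant 2. It had 2203, 2000 and 1741 normalized counts in resistant 1, 2194, 1910 and 1680 in resistant 2, against 2550, 2239 and 2516 in parental cells. The resistant populations overlapped each other and lay just below the parental libraries, at -0.34 (SE 0.128, adjusted p = 0.0369) in resistant 2 and -0.30 (SE 0.128, adjusted p = 0.0667) in resistant 1.

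CENPA itself fell in resistant 2 (-1.68, SE 0.0954, adjusted p = 6.88e-08), and likewise in resistant 1 (-1.26, SE 0.0954, adjusted p = 9.49e-07). CENPI separated the resistant populations. It had 5115, 4896 and 4858 normalized counts in resistant 1, 1678, 2004 and 2569 in resistant 2, against 5216, 4096 and 4781 in parental cells. Resistant 1 overlapped with parental cells (0.08, adjusted p = 0.654), while resistant 2 lay below both and fell by 1.19 on the log2 scale (adjusted p = 3.24e-05). CENPN, which with CENPL recognises the CENPA nucleosome, ran the other way. It had 2912, 2990 and 2866 normalized counts in resistant 1, 3875, 3812 and 3971 in resistant 2, against 6457, 5635 and 6709 in parental cells, so that resistant 1 was the lowest group. CENPM varied most between its libraries, with 713, 683 and 1086 normalized counts in resistant 1, 319, 344 and 724 in resistant 2, against 1481, 1406 and 822 in parental cells. Resistant 1 overlapped with parental cells there (-0.56, SE 0.327, adjusted p = 0.167). The remaining genes, CENPH, CENPL, CENPU and the histone-fold protein CENPW, fell by 1.74 to 1.89 in resistant 2 and by 0.87 to 1.56 in resistant 1. Since the strand setting of the counting is not given in the sources used here, values of CENPN and CENPU, which share 22.8% and 11.7% of their exonic length with a gene on the opposite strand, may hold reads of that gene.

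All 6 genes of the KNL1 and NDC80 network fell in both resistant populations under DMSO, with medians of -1.35 in resistant 1 and -2.04 in resistant 2. ZWINT, the KNL1 partner that recruits the checkpoint complex of ZW10, had 6209, 5629 and 6752 normalized counts in resistant 1, 1627, 2608 and 4135 in resistant 2, against 20141, 15877 and 16861 in parental cells. The 3 groups did not overlap. Its level fell to 0.148 of the parental level in resistant 2 (log2 -2.75, SE 0.259, adjusted p = 3.61e-06) and to 0.352 in resistant 1 (SE 0.259 on the log2 scale, adjusted p = 0.000485). KNL1, the scaffold that docks BUB1 and BUB1B, had 3987, 3617 and 3342 normalized counts in resistant 1, 3651, 4018 and 5167 in resistant 2, against 10863, 9131 and 10162 in parental cells. The resistant populations overlapped (-0.22 in resistant 1 against resistant 2, adjusted p = 0.193), and both were below parental cells. In the NDC80 complex, which binds the microtubule, NUF2 fell by 2.53 in resistant 2 and by 1.25 in resistant 1, SPC25 by 2.17 and by 0.82, NDC80 by 1.90 and by 1.44, and SPC24 by 1.39 and by 0.68.

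SKA3 and SKA1, which hold NDC80 on shortening microtubule ends, were among the most reduced members. SKA3 had 1225, 1240 and 1101 normalized counts in resistant 1, 601, 661 and 889 in resistant 2, against 4689, 3932 and 4322 in parental cells under DMSO. SKA1 had 752, 763 and 674 in resistant 1, 409, 393 and 499 in resistant 2, and 2371, 2114 and 2369 in parental cells. For both genes the 3 groups were fully apart, with resistant 2 lowest. SKA3 fell by 2.60 in resistant 2 (SE 0.147, adjusted p = 6.65e-08) and by 1.86 in resistant 1 (SE 0.147, adjusted p = 1.34e-06), and SKA1 by 2.40 (SE 0.127, adjusted p = 4.05e-08) and by 1.65 (SE 0.127, adjusted p = 1.12e-06).

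The 8 corona and checkpoint genes fell in both populations under DMSO, with medians of -1.18 in resistant 1 and -2.05 in resistant 2. CENPF, a large coiled-coil protein of the corona, had 17919, 16498 and 14454 normalized counts in resistant 1, 6689, 8014 and 10039 in resistant 2, against 55599, 44681 and 50109 in parental cells. The 3 groups were apart, and the log2 changes were -2.62 in resistant 2 (SE 0.145, adjusted p = 5.83e-08), with -1.62 in resistant 1 (SE 0.145, adjusted p = 3.58e-06). BUB3, which binds the phosphorylated KNL1 repeats, moved least of the 8 in resistant 2. It had 21209, 21189 and 20347 normalized counts in resistant 1, 12657, 12702 and 13453 in resistant 2, against 34194, 29759 and 34062 in parental cells. Again no libraries of different groups overlapped, at -1.33 in resistant 2 (SE 0.0803, adjusted p = 1.09e-07), with -0.64 in resistant 1 (SE 0.0803, adjusted p = 4.68e-05). CDC20, the activator of the anaphase-promoting complex that the checkpoint inhibits, had 6934, 6353 and 6320 normalized counts in resistant 1, 2815, 2666 and 3910 in resistant 2, against 14905, 13354 and 12738 in parental cells. No libraries of different groups overlapped, with resistant 2 lowest. The log2 changes in resistant 2 were -2.14 for CDC20, -2.14 and -1.97 for the checkpoint kinases TTK and BUB1, -2.15 for the corona motor CENPE, -1.89 for MAD2L1, which binds CDC20, and -1.48 for the BUBR1 gene BUB1B. In resistant 1 they were -1.06 for CDC20, -1.31 for TTK, -0.72 for BUB1, -0.74 for MAD2L1 and -1.38 for BUB1B. CENPE had 6657, 6593 and 6283 normalized counts in resistant 1, against 16275, 14474 and 17420 in parental cells.

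All 4 genes of the chromosomal passenger complex, the kinase module that corrects faulty attachments, fell in both populations under DMSO. AURKB, its kinase, had 3064, 2779 and 2749 normalized counts in resistant 1, 1867, 1633 and 2185 in resistant 2, against 12708, 12302 and 10030 in parental cells. INCENP, its scaffold, had 3089, 2678 and 3307 in resistant 1, 1945, 1650 and 2585 in resistant 2, and 7559, 7119 and 4967 in parental cells, where replicate 3 was the low library. No resistant library reached a parental one for either gene. AURKB fell to 0.246 of the parental level in resistant 1 (log2 -2.02, SE 0.128, adjusted p = 2.25e-07) and to 0.162 in resistant 2 (log2 -2.63, SE 0.128, adjusted p = 2.18e-08). The log2 changes of INCENP were -1.10 in resistant 1 (SE 0.188, adjusted p = 0.000481), with -1.67 in resistant 2 (SE 0.188, adjusted p = 1.53e-05). CDCA8 (borealin) fell by 1.42 in resistant 1 and by 1.89 in resistant 2, and BIRC5 (survivin) by 0.94 and by 1.74.

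The kinases PLK1 and AURKA differed in which resistant population was lower. PLK1, which acts at kinetochores and spindle poles, had 7994, 7427 and 8387 normalized counts in resistant 1, 2410, 2434 and 3761 in resistant 2, against 19616, 17154 and 14044 in parental cells. AURKA, the spindle pole kinase, had 12944, 11775 and 11448 in resistant 1, 16264, 22842 and 17211 in resistant 2, and 32595, 26970 and 30775 in parental cells. PLK1 was thus lowest in resistant 2 and AURKA lowest in resistant 1, with no overlap between the groups. PLK1 fell by 2.58 in resistant 2 (SE 0.173, adjusted p = 2.43e-07) and by 1.08 in resistant 1 (SE 0.173, adjusted p = 0.000285). AURKA fell by 0.69 in resistant 2 (SE 0.128, adjusted p = 0.000651) and by 1.32 in resistant 1 (SE 0.128, adjusted p = 6.63e-06). PLK1 shares 12.5% of its exonic length with a gene on the opposite strand, and AURKA has 2 annotated pseudogene copies, so reads could be shared there. The same holds for CENPU, with 2 pseudogene copies, and for CENPC, CENPI, BUB1, BUB3, CDC20 and MKI67, with 1 each. BUB1B and CENPA share 10.2% and 7.0% of their exonic length with a gene on the same strand.

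Among the spindle motors and assembly factors, HMMR, a microtubule-bound assembly factor, had 3884, 3736 and 3699 normalized counts in resistant 1, 1598, 1763 and 2445 in resistant 2, against 16048, 13092 and 15574 in parental cells under DMSO. The 3 groups were far apart: its level in resistant 2 was 0.128 of the parental level (log2 -2.96, SE 0.147, adjusted p = 2.42e-08), and in resistant 1 it was 0.254 (log2 -1.98, SE 0.147, adjusted p = 8.14e-07). KIF23, the centralspindlin motor of cytokinesis, had 8535, 8278 and 7643 normalized counts in resistant 1, 7564, 8607 and 10276 in resistant 2, against 20077, 17741 and 20983 in parental cells. Here the resistant populations overlapped, and the log2 changes were -1.26 in resistant 1 (SE 0.116, adjusted p = 4.38e-06), with -1.16 in resistant 2 (SE 0.116, adjusted p = 6.05e-06). The pole-separating motor KIF11 fell by 2.64 in resistant 2 and by 1.40 in resistant 1, the AURKA activator TPX2 by 2.13 and by 1.33, and the microtubule depolymerase KIF2C by 1.96 and by 0.89. MKI67, which encodes the Ki-67 coat of mitotic chromosomes and is widely used as a proliferation marker, had 25741, 23971 and 21063 normalized counts in resistant 1, 7638, 8998 and 11425 in resistant 2, against 64793, 55095 and 56738 in parental cells. The groups did not overlap, and its level was 0.4 of the parental level in resistant 1 (log2 -1.32, SE 0.139, adjusted p = 1.25e-05), with 0.157 in resistant 2 (log2 -2.67, SE 0.139, adjusted p = 3.62e-08).

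Compared directly under DMSO, resistant 1 had higher levels than resistant 2 for 29 of 38 members, lower levels for 2, and 7 were not called; over all genes, 27.4% were higher and 26% lower. The median log2 difference was 0.80, against 0.02 over all genes. PLK1 differed most, at 1.50 (SE 0.173, adjusted p = 2.72e-05), ahead of SPC25 at 1.36 (SE 0.202, adjusted p = 0.000189) and MKI67 at 1.35 (SE 0.139, adjusted p = 1.16e-05). AURKA (-0.62, SE 0.128, adjusted p = 0.00173) and CENPN (-0.41, SE 0.0899, adjusted p = 0.00262) were the 2 members lower in resistant 1. KNL1, KIF23, CENPC, BUB1B, CENPL, CENPU and CENPK, between -0.22 and 0.37, were not called. The calls of CENPM and INCENP were lost without resistant 1 replicate 1 or 3 or resistant 2 replicate 1 or 2 (adjusted p = 0.0559 to 0.136 for CENPM and 0.0625 to 0.1 for INCENP).

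Levels per kilobase of exon set different genes side by side only roughly. The length used merges all annotated exons of a gene and can exceed that of the transcript expressed, which can move ranks. On this scale the order of the members under DMSO was led by TPX2 and AURKA in every group. TPX2 stood at 4123 normalized counts per kilobase in resistant 1, 2379 in resistant 2 and 10387 in parental cells, and AURKA at 4117, 6411 and 10285. In resistant 2 AURKA was thus the highest member, with TPX2 next. At the low end, CENPC stood at 230 normalized counts per kilobase in resistant 1, 224 in resistant 2 and 283 in parental cells, and SKA1 at 247, 147 and 775. CENPC was the lowest member in resistant 1 and parental cells, and SKA1 in resistant 2.

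With ATRA and decitabine, most kinetochore and spindle RNAs were again lower in resistant than in parental cells, with medians nearer to 0 than those under DMSO. In resistant 1, 30 members were called lower, 1 higher and 7 not called (median log2 change -0.57 against 0.03 over all 18832 genes tested, of which 32.3% were lower and 35.5% higher). In resistant 2, 30 were called lower, 1 higher and 7 not called (median -0.76 against 0.07 over all genes, of which 34% were lower and 38.9% higher). CDC20 had the lowest value in both, -1.96 in resistant 1 and -2.40 in resistant 2. These comparisons share the treated parental libraries. Whether the treated and DMSO differences of a gene are unlike was tested through the responses given further on.

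CDC20 had 8008, 9743 and 7780 normalized counts in resistant 1, 6635, 5452 and 6762 in resistant 2, against 32011, 32563 and 34204 in parental cells under treatment (limma, adjusted p = 4.03e-08 in resistant 1 and 5.11e-09 in resistant 2). HMMR had 5973, 6575 and 5427 in resistant 1, 3496, 3743 and 4616 in resistant 2, and 16383, 16368 and 17637 in parental cells. CENPF had 21637, 23704 and 19168 in resistant 1, 12695, 15208 and 18562 in resistant 2, and 50183, 53220 and 51879 in parental cells. For these 3 genes every resistant library was below every parental library, with resistant 2 lowest. HMMR fell by 1.49 in resistant 1 (SE 0.108, adjusted p = 3.84e-07) and by 2.10 in resistant 2 (SE 0.108, adjusted p = 1.76e-08), and CENPF by 1.27 (SE 0.123, adjusted p = 3.57e-06) and by 1.76 (SE 0.123, adjusted p = 1.89e-07). MKI67 had 37230, 42848 and 32359 normalized counts in treated resistant 1, 19462, 22324 and 26816 in treated resistant 2, and 64666, 71667 and 64747 in treated parental cells. The groups stayed apart, at -0.85 in resistant 1 (SE 0.123, adjusted p = 8.85e-05), with -1.56 in resistant 2 (SE 0.123, adjusted p = 4.97e-07).

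By role, the chromosomal passenger genes had medians of -1.02 in treated resistant 1 and -1.10 in treated resistant 2, the corona and checkpoint genes -0.55 and -0.87, the KNL1 and NDC80 network -0.57 and -0.67, the spindle motors and assembly factors -0.63 and -1.17, and the inner kinetochore -0.34 and -0.25. AURKB had 3793, 4317 and 3561 normalized counts in resistant 1, 3836, 3783 and 4912 in resistant 2, against 9476, 8941 and 8673 in parental cells. INCENP had 4347, 5280 and 5188 in resistant 1, 3467, 3214 and 4696 in resistant 2, and 10402, 10546 and 9908 in parental cells. Neither gene overlapped between resistant and parental libraries. AURKB fell by 1.22 in resistant 1 (SE 0.111, adjusted p = 2.23e-06) and by 1.12 in resistant 2 (SE 0.111, adjusted p = 3.01e-06). INCENP fell by 1.06 (SE 0.131, adjusted p = 2.37e-05) and by 1.46 (SE 0.131, adjusted p = 1.37e-06).

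The members that were not lower under treatment came largely from the inner kinetochore and the SPC24 and SPC25 pair of the NDC80 complex. CENPH was higher in treated resistant 1 than in treated parental cells (0.40, SE 0.0993, adjusted p = 0.00358), and in resistant 2 it was not called (-0.10, adjusted p = 0.366). CENPN had 4824, 5072 and 4486 normalized counts in resistant 1, 6867, 7878 and 8328 in resistant 2, against 5692, 5561 and 5840 in parental cells. Resistant 2 thus lay above and resistant 1 below parental cells, with no overlap, at 0.43 (SE 0.0861, adjusted p = 0.000824) and -0.25 (SE 0.0861, adjusted p = 0.0225). KIF23 had 15403, 15397 and 12158 in resistant 1, 18175, 19802 and 20925 in resistant 2, and 18647, 19759 and 19944 in parental cells. Resistant 2 overlapped with parental cells there (0.01, SE 0.097, adjusted p = 0.918; -0.28, adjusted p = 0.0255, after quantile normalization), and resistant 1 was lower (-0.45, SE 0.097, adjusted p = 0.00155). Not called in resistant 1 were MAD2L1, BIRC5, BUB3, SPC24, CENPI, SPC25 and CENPM, between -0.25 and 0.40, and in resistant 2 SPC25, CENPK, SPC24, CENPH, CENPU, KIF23 and CENPM, between -0.22 and 0.14.

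Calls that rested on single libraries under treatment were those of CENPK (adjusted p up to 0.113) and CENPU (up to 0.109) in resistant 1, each lost without parental replicate 1, 2 or 3 or resistant 1 replicate 3. CENPN lost its call in resistant 1 without parental replicate 1 or 3 or resistant 1 replicate 3 (up to 0.0813), and BUB1 without parental replicate 2 or resistant 1 replicate 3 (up to 0.058). AURKA in resistant 2 lost its call without parental replicate 1, 2 or 3 or resistant 2 replicate 1 or 3 (up to 0.105). AURKA had 17921, 18543 and 15893 normalized counts in resistant 1, 21473, 30799 and 23929 in resistant 2, against 30645, 31066 and 32381 in parental cells. Replicate 2 of resistant 2 stood above the other libraries of its group and reached the parental range, and the log2 changes were -0.85 in resistant 1 (SE 0.116, adjusted p = 5.47e-05), with -0.32 in resistant 2 (SE 0.116, adjusted p = 0.0264).

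Between the treated resistant populations, 18 members were higher in resistant 1, 5 lower and 15 not called, against 28.8% higher and 29.5% lower over all genes, with a median of 0.27 against -0.01. PLK1 again differed most. It had 7276, 9341 and 8741 normalized counts in resistant 1 and 4176, 4079 and 5719 in resistant 2, without overlap (0.87, SE 0.132, adjusted p = 0.000164). The members lower in resistant 1 were CENPN (-0.68, SE 0.0861, adjusted p = 4.13e-05), KNL1 (-0.63, SE 0.126, adjusted p = 0.00116), AURKA (-0.53, SE 0.116, adjusted p = 0.00221), BUB1B (-0.53, SE 0.127, adjusted p = 0.00391) and KIF23 (-0.46, SE 0.097, adjusted p = 0.00165). Without resistant 2 replicate 1 the number lower was 8 and the median 0.16, and without resistant 2 replicate 3 the median was 0.45. The calls of CENPW and SPC25 were lost without resistant 1 replicate 1 or 2 or resistant 2 replicate 1 (adjusted p up to 0.0881 and 0.0898), that of ZWINT without resistant 1 replicate 1 or 2 (up to 0.0732), and that of INCENP without resistant 1 replicate 2 or 3 or resistant 2 replicate 1 or 2 (up to 0.0889).

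**Figure D3:**
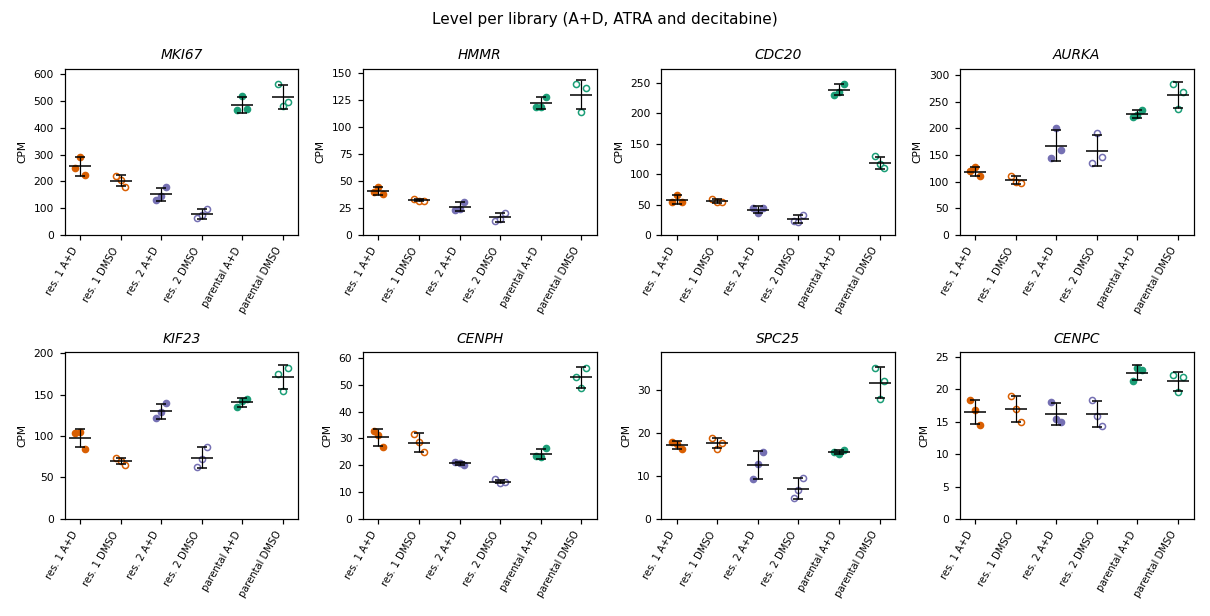
CPM per library of 8 members (points, 3 libraries a group; lines are mean ± SD), treated groups (A+D, filled) left of their DMSO group (open). MKI67 and HMMR separate the populations under both treatments, while CDC20 in treated parental cells (231 to 249 CPM) stands above every other group.

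Under treatment fewer members were called in resistant 1 than in the other populations, most rose in resistant 2, and most fell in parental cells. In resistant 1, 6 of 38 rose, 1 fell and 31 were not called (median log2 response 0.11 against 0.00 over all 19137 genes tested, of which 14.8% were called higher and 12% lower). In resistant 2, 32 rose, none fell and 6 were not called (median 0.62 against 0.00, with 10.5% of all genes higher and 7.84% lower). In parental cells 24 fell, 1 rose and 13 were not called (median -0.45 against 0.00, with 32.2% of all genes lower and 33.5% higher). With restored genes kept at a stricter posterior, which left 34 members, 15 fell and 3 rose in parental cells, with a median of -0.29. Treated and DMSO libraries of the same replicate number deviated together in both resistant populations. In parental cells they did so for replicates 1 and 3 but not for replicate 2 (r = 0.48, 0.36 and -0.24). With that number as a block within each resistant population, a fit chosen after seeing the data, 14 members rose and 1 fell in resistant 1 (19.4% of all genes higher and 17.6% lower), and 35 rose and none fell in resistant 2 (15% higher and 12.6% lower). Responses compare CPM on a joint scaling of the 18 libraries, since the deposited tables were normalized separately, and treated and DMSO libraries are therefore also a difference of table. Summed over members, the level was 2187 ± 178 CPM with treatment against 2001 ± 116 with DMSO in resistant 1, 1807 ± 221 against 1228 ± 172 in resistant 2, and 3817 ± 55.9 against 4699 ± 374 in parental cells (SD, n = 3 each).

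**Figure D4:**
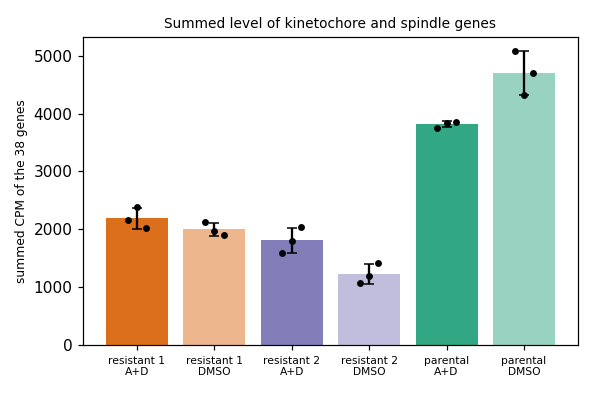
Summed CPM of the 38 genes in each group (bars, mean ± SD; points, the 3 libraries), with ATRA and decitabine (A+D, dark) left of DMSO (light) for each population. The treated bar is above the DMSO bar in resistant 2 (1807 against 1228) and below it in parental cells (3817 against 4699), and both resistant populations stay below parental cells.

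CENPH had the largest response in parental cells. In resistant 1 it had 32.9, 31.4 and 26.8 CPM with treatment against 31.6, 28.7 and 24.8 CPM with DMSO, and in resistant 2 it had 21.1, 20.8 and 20.1 CPM against 14.7, 13.5 and 13.6. In parental cells it stood at 23.4, 23 and 26.4 CPM with treatment against 52.9, 48.9 and 56.4 CPM with DMSO. Treated and DMSO libraries overlapped in resistant 1 (0.10, adjusted p = 0.504), while CENPH rose in resistant 2 (0.54, SE 0.0936, adjusted p = 0.000662) and fell by 1.09 on the log2 scale in parental cells (SE 0.0936, limma adjusted p = 3.48e-08), without overlap. The difference of responses was 1.19 in resistant 1 minus parental cells (SE 0.132, adjusted p = 2.42e-06). It was 1.63 in resistant 2 minus parental cells (SE 0.132, adjusted p = 5.28e-08).

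SPC25 had 17.9, 17.4 and 16.2 CPM with treatment against 18.9, 16.4 and 17.6 with DMSO in resistant 1. It had 9.28, 12.7 and 15.7 against 4.82, 6.64 and 9.59 in resistant 2, and 15.6, 15.2 and 16 against 35.3, 28 and 32.1 in parental cells. It was not called in resistant 1 (-0.04, adjusted p = 0.925), rose in resistant 2 (0.77, SE 0.181, adjusted p = 0.00618) and fell by 0.98 in parental cells (SE 0.181, adjusted p = 0.000167). In resistant 2 a treated library, replicate 1, lay just below the highest DMSO library, replicate 3, while each treated library was above the DMSO library of its own number. Other members that fell in parental cells included the checkpoint protein gene MAD2L1 (-0.96, SE 0.122, adjusted p = 3.24e-06), CENPK (-0.93, SE 0.153, adjusted p = 5.52e-05), SKA1 (-0.84, SE 0.103, adjusted p = 2.14e-06), CENPU (-0.83, SE 0.142, adjusted p = 8.14e-05) and PLK1 (-0.81, SE 0.171, adjusted p = 0.000541).

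CDC20 was the member that rose in parental cells. In resistant 1 it stood at 53.8, 66.6 and 54.3 CPM with treatment against 59.7, 54 and 54.4 with DMSO, and in resistant 2 at 44.6, 35.5 and 45.3 CPM against 23.5, 22.2 and 33.2. In parental cells it had 231, 236 and 249 CPM with treatment against 130, 117 and 111 CPM with DMSO. Treated and DMSO libraries overlapped in resistant 1 (0.05, adjusted p = 0.843) and were apart in the other 2 populations. CDC20 rose by 0.66 in resistant 2 (SE 0.129, adjusted p = 0.00171) and by 1.00 in parental cells (SE 0.129, adjusted p = 4.26e-06). Its response in resistant 1 minus that in parental cells was -0.95 (SE 0.183, adjusted p = 0.000524), while the difference between resistant 2 and parental cells was not called (-0.33, SE 0.183, adjusted p = 0.142; adjusted p = 0.0426 with the block).

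MKI67, CENPI and CENPC had the smallest responses in parental cells. MKI67 had 250, 293 and 226 CPM with treatment against 222, 204 and 181 with DMSO in resistant 1. It had 131, 145 and 180 against 63.8, 75.1 and 97 in resistant 2, and 467, 519 and 471 against 565, 482 and 496 in parental cells. The libraries were apart in both resistant populations, where MKI67 was not called in resistant 1 (0.34, SE 0.143, adjusted p = 0.0965; 0.00376 with the block) and rose in resistant 2 (0.95, SE 0.143, adjusted p = 0.000205). They overlapped in parental cells (-0.08, adjusted p = 0.647). CENPI had 42.3, 44 and 37.7 CPM with treatment against 44, 41.6 and 41.8 with DMSO in resistant 1, 18.4, 25.5 and 28.6 against 14, 16.7 and 21.8 in resistant 2, and 37.9, 39.8 and 38.3 against 45.5, 35.8 and 41.8 in parental cells. CENPC had 18.3, 16.8 and 14.5 CPM with treatment against 19, 17 and 15 with DMSO in resistant 1, 18.1, 15.5 and 14.9 against 18.3, 15.9 and 14.3 in resistant 2, and 21.3, 23.4 and 23 against 22.2, 19.6 and 22 in parental cells. Both genes overlapped between treatment and DMSO in all 3 populations, although for CENPI in resistant 2 each treated library was above the DMSO library of its own number. CENPC was not called in any, at -0.04 for resistant 1, 0.00 for resistant 2 and 0.08 for parental cells. CENPI was called higher in resistant 2 (0.44, SE 0.148, adjusted p = 0.0493) and not in the other 2.

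In resistant 1 the 6 members that rose were KIF23 (0.48, SE 0.107, adjusted p = 0.0035), TPX2 (0.42, SE 0.107, adjusted p = 0.00844), CENPN (0.37, SE 0.0743, adjusted p = 0.00136), CENPA (0.31, SE 0.101, adjusted p = 0.0326), NDC80 (0.31, SE 0.111, adjusted p = 0.0488) and CENPL (0.23, SE 0.0772, adjusted p = 0.0368), and MAD2L1 fell (-0.53, SE 0.122, adjusted p = 0.00413). MAD2L1 had 41.2, 42.9 and 40.1 CPM with treatment against 63.1, 60.2 and 57.7 with DMSO there, and 29.3, 38.5 and 42.3 against 23.5, 24.8 and 32 in resistant 2, where the groups overlapped but each treated library was above its same-numbered DMSO library, and it rose by 0.44 (adjusted p = 0.0187). With the block, KNL1 (adjusted p = 0.00368), MKI67, HMMR (0.00586), CDCA8 (0.0152), CENPU (0.0198), SKA3 (0.0233), AURKA (0.0284) and INCENP (0.0389) were called higher in resistant 1 as well, at log2 responses of 0.21 to 0.37. The block calls were not repeated with libraries left out. Without the block, the 6 became 2 without resistant 1 treated replicate 2 and 3 without resistant 1 DMSO replicate 2 or 3, and the median became 0.06 without treated replicate 2 and 0.19 without treated replicate 3. CENPA lost its call without treated replicate 2 or DMSO replicate 2 or 3 (adjusted p up to 0.195), CENPL without treated replicate 1 or 2 or DMSO replicate 2 or 3 (up to 0.131), NDC80 without any of the libraries but treated replicate 3 (up to 0.177), and TPX2 without treated replicate 2 (0.0579).

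In resistant 2 the members that rose came from every role except the mitotic kinases: 8 of 10 inner kinetochore genes, 6 of 6 of the KNL1 and NDC80 network, 2 of 2 SKA genes, 7 of 8 corona and checkpoint genes, 3 of 4 chromosomal passenger genes, 5 of 5 spindle motors and assembly factors, and MKI67. After MKI67 the largest rises were those of ZWINT (0.89, SE 0.248, adjusted p = 0.0186), KIF23 (0.82, SE 0.107, adjusted p = 5.27e-05) and SKA3 (0.80, SE 0.136, adjusted p = 0.000597). AURKA (0.10, adjusted p = 0.713), PLK1 (0.36, adjusted p = 0.173), BUB3, CENPC, CENPM and INCENP were not called. With the block, INCENP (0.52, adjusted p = 0.00855), PLK1 (adjusted p = 0.027) and CENPM (0.52, adjusted p = 0.0334) were called higher. Of the 32 calls, 9 were lost on leaving out a library. Those of BUB1B (adjusted p up to 0.125), CENPE (0.158), CENPI (0.228), MAD2L1 (0.107) and ZWINT (0.107) were lost without treated replicate 2 or 3 or DMSO replicate 1 or 2, those of BIRC5 (0.0727), CENPW (0.118) and SPC24 (0.077) without treated replicate 3 or DMSO replicate 1 or 2, and that of CENPF (0.0717) without treated replicate 3 or DMSO replicate 1.

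In parental cells the calls of SPC24 (adjusted p up to 0.147), KIF23 (0.113), CENPA (0.124), CENPM (0.0714) and BUB1B (0.0583) each depended on a library. SPC24 lost its call without any treated library or DMSO replicate 1, KIF23 without treated replicate 1 or 2 or DMSO replicate 1 or 3, CENPA without treated replicate 1 or DMSO replicate 1 or 3, CENPM without treated replicate 2 or DMSO replicate 1 or 2, and BUB1B without treated replicate 1 or DMSO replicate 3. The count of members that rose, 1, became 2 without DMSO replicate 1, when INCENP was called as well.

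**Figure D5:**
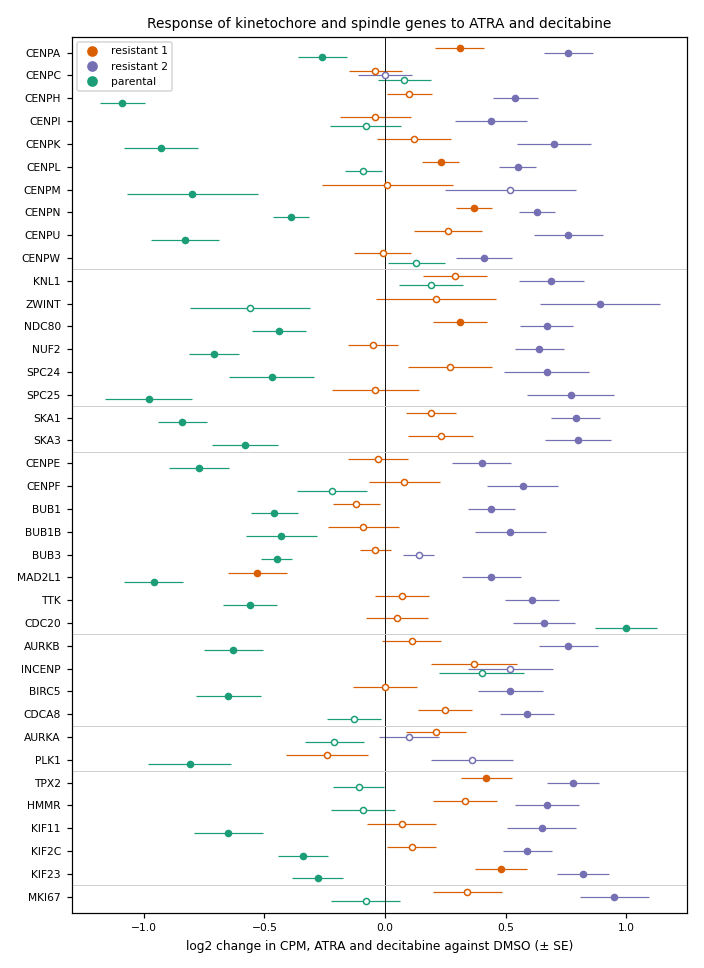
Log2 response of each of the 38 genes to ATRA and decitabine against DMSO in resistant 1 (orange), resistant 2 (purple) and parental cells (green), on CPM scaled over 18 libraries; bars are ± SE and filled points are called by limma at an adjusted p under 0.05. All purple points lie at or above 0 (median 0.62), and most green points lie below 0 (median -0.45) with CDC20 at 1.00.

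The difference between responses was tested as an interaction. The response was higher in resistant 2 than in parental cells for 32 members, lower for none and not called for 6 (median difference 1.06 against 0.00 over all genes, of which 23.9% were higher and 26.4% lower). It was higher in resistant 1 than in parental cells for 21 members, lower for 1, CDC20, and not called for 16 (median 0.57 against 0.00, with 21% of all genes higher and 24% lower). Both differences contain the same parental libraries. SPC25 differed most in resistant 2 minus parental, at 1.75 (SE 0.256, adjusted p = 3.27e-05), and SKA1 reached 1.63 (SE 0.146, adjusted p = 1.59e-07), with 1.03 (SE 0.146, adjusted p = 2.87e-05) in resistant 1 minus parental. CENPC (-0.08), INCENP (0.12), CENPW (0.28), AURKA (0.30), CENPI (0.52) and CDC20 (-0.33) were not called in resistant 2 minus parental. With the block, CENPI (adjusted p = 0.00158), AURKA (0.0141) and CENPW (0.0228) were called higher and CDC20 (0.0426) lower there. In resistant 1 minus parental, the block gave 32 members higher (26.7% of all genes) and 1 lower (28.1%), with ZWINT (0.76, adjusted p = 0.000273) and PLK1 (0.57, adjusted p = 0.0072) among the 11 gained. In resistant 2 minus parental, KNL1 (0.50, adjusted p = 0.039) lost its call without any of 9 of the 12 libraries (adjusted p = 0.0534 to 0.109). The exceptions were treated replicate 1 and DMSO replicate 3 of resistant 2 and DMSO replicate 2 of parental cells. In resistant 1 minus parental, CENPL lost its call without resistant 1 treated replicate 1 or 2, resistant 1 DMSO replicate 2 or 3, or parental DMSO replicate 1 or 3 (up to 0.0603), KIF2C without resistant 1 treated replicate 2 or DMSO replicate 3 (up to 0.0555), and SPC24 without parental DMSO replicate 1 or resistant 1 DMSO replicate 2 (up to 0.0658).

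Between the resistant populations the response was lower in resistant 1 than in resistant 2 for MAD2L1 (-0.97, SE 0.173, adjusted p = 0.00354), NUF2 (-0.69, SE 0.146, adjusted p = 0.0127), SKA1 (-0.60, SE 0.146, adjusted p = 0.0272), BUB1 (-0.56, SE 0.138, adjusted p = 0.0283) and AURKB (-0.65, SE 0.172, adjusted p = 0.0406). Those 5 of 38 stand against 1.53% of all genes called lower, no member was called higher against 2.92% of all genes, and the median was -0.49 against -0.00. With the block within each resistant population, 29 members were lower and none higher (4.64% and 5.97% of all genes), and no call was lost. SPC25 (-0.81, SE 0.115, adjusted p = 0.000681), BUB1B (-0.60, SE 0.0941, adjusted p = 0.0013) and MKI67 (-0.61, SE 0.107, adjusted p = 0.00274) were among the 24 gained. Without the block the count depended on single libraries. Of 12 libraries, 9 moved this count: it was 18 without resistant 2 DMSO replicate 3, 12 without resistant 2 treated replicate 1, and 2 without resistant 1 treated replicate 1 or 3, resistant 1 DMSO replicate 1 or 2, resistant 2 treated replicate 3, or resistant 2 DMSO replicate 1 or 2. AURKB, BUB1 and SKA1 each lost their call without 8 of the libraries (adjusted p up to 0.113, 0.0822 and 0.0801).

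The wider mitotic apparatus followed lists of related genes, set out by function. Of 26 further kinetochore genes, 22 fell and none rose in resistant 1 under DMSO (median log2 change -0.85), and 21 fell and none rose in resistant 2 (median -1.32). Over all genes 26.6% were lower and 29.3% higher in resistant 1, and 29.8% lower and 32.1% higher in resistant 2. SGO1, the shugoshin that protects centromeric cohesin, had 1083, 1071 and 918 normalized counts in resistant 1, 522, 584 and 689 in resistant 2, against 3218, 2976 and 3414 in parental cells. It fell by 1.65 in resistant 1 (SE 0.13, adjusted p = 1.32e-06) and by 2.43 in resistant 2 (SE 0.13, adjusted p = 4.38e-08), and the inner kinetochore gene CENPP by 0.90 (adjusted p = 0.00264) and by 1.83 (adjusted p = 1.15e-05). Of 24 further spindle genes, 23 fell in resistant 1 (median -1.15) and 22 in resistant 2 (median -1.78). The kinesin KIF18B fell by 1.84 in resistant 1 (adjusted p = 1.27e-05) and by 2.79 in resistant 2 (adjusted p = 3.28e-07), and SPAG5, which encodes the spindle protein astrin, by 0.92 (adjusted p = 5.59e-05) and by 2.44 (adjusted p = 2.14e-08). NUMA1, which anchors microtubules at spindle poles, rose by 0.46 in resistant 2 (SE 0.126, adjusted p = 0.00807) and was not called in resistant 1 (-0.21, adjusted p = 0.182). In response to treatment, 2 of the further spindle genes rose in resistant 1, 17 in resistant 2 and 2 in parental cells, where 9 fell. Of the further kinetochore genes 4, 13 and 3 rose in resistant 1, resistant 2 and parental cells, and 2, 0 and 12 fell. Over all genes the shares that rose were 14.8% in resistant 1, 10.5% in resistant 2 and 33.5% in parental cells, and 12%, 7.84% and 32.2% fell.

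Of the 20 genes of the anaphase-promoting complex and separase list, 12 were lower in resistant 1 (median -0.37) and 11 in resistant 2 (median -0.28) under DMSO, against the shares of all genes of 26.6% and 29.8%. ESPL1, which encodes separase, fell by 0.91 in resistant 1 (adjusted p = 0.00214) and by 1.97 in resistant 2 (adjusted p = 5.58e-06), and the inhibitor gene FBXO5 by 1.86 (adjusted p = 2.26e-07) and by 1.79 (adjusted p = 2.15e-07). CDC16, a subunit gene, rose in resistant 2 (0.31, adjusted p = 0.0137). In the mitotic entry list 10 of 11 genes fell in each resistant population and CDC25B, a CDK1-activating phosphatase, rose (0.67, adjusted p = 0.000115 in resistant 1; 0.31, adjusted p = 0.0139 in resistant 2). PKMYT1, which inhibits CDK1, fell by 1.92 in resistant 1 (adjusted p = 0.00304) and by 3.63 in resistant 2 (adjusted p = 2.42e-05), and CKS1B, a CDK subunit gene, had log2 changes of -1.79 (adjusted p = 1.47e-07) and -2.42 (adjusted p = 1.06e-08). Of 12 tubulin genes 2 fell and 2 rose in resistant 1 (26.6% and 29.3% of all genes), and 9 fell and 1 rose in resistant 2 (29.8% and 32.1% of all genes). TUBA1B fell in both (by 0.77, adjusted p = 0.000683, and by 1.81, adjusted p = 7.39e-07), TUBB2B rose in resistant 1 (1.80, adjusted p = 1.57e-05) and fell in resistant 2 (-2.49, adjusted p = 8.47e-07), and TUBG2 rose in both (1.34, adjusted p = 1.93e-06, and 1.24, adjusted p = 2.35e-06).

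Among regulators of cell cycle transcription, 11 of 17 genes fell in each resistant population under DMSO. Over all genes, 26.6% were called lower in resistant 1 and 29.8% in resistant 2. FOXM1, an activator of G2 and mitosis genes, had 9139, 8902 and 8510 normalized counts in resistant 1, 4144, 4207 and 5072 in resistant 2, against 16914, 14177 and 13614 in parental cells. MYBL2, its partner at CHR promoters, had 3527, 3564 and 4379 in resistant 1, 1684, 2332 and 4988 in resistant 2, and 18826, 17080 and 12757 in parental cells. Both were below parental cells in every resistant library. The log2 changes of FOXM1 were -0.75 in resistant 1 (adjusted p = 0.000151) and -1.74 for resistant 2 (adjusted p = 1.53e-07), and those of MYBL2 were -2.07 (adjusted p = 0.0002) and -2.57 (adjusted p = 2.98e-05). The E2F gene E2F2 had 930, 897 and 1088 normalized counts in resistant 1, 99.6, 216 and 485 in resistant 2, against 4166, 3762 and 3085 in parental cells. It fell in resistant 1 (-1.91, SE 0.422, adjusted p = 0.00259), and likewise in resistant 2 (-4.05, SE 0.422, adjusted p = 8.11e-06). In resistant 2 a rise was called for the DREAM complex genes LIN37 (0.61, adjusted p = 0.00636) and LIN52 (0.27, adjusted p = 0.0483).

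CDKN1A, which encodes the CDK inhibitor p21, had 66307, 64649 and 73416 normalized counts in resistant 1, 147528, 115620 and 103221 in resistant 2, against 4254, 5435 and 5461 in parental cells under DMSO. The resistant libraries were all far above the parental ones, at 3.76 in resistant 1 (SE 0.139, adjusted p = 3.15e-09), with 4.59 in resistant 2 (SE 0.139, adjusted p = 6.23e-10). With treatment it had 71776, 73754 and 77515 normalized counts in resistant 1, 125125, 116259 and 107949 in resistant 2, against 66480, 61113 and 65500 in parental cells, at 0.21 in resistant 1 (SE 0.0719, adjusted p = 0.023), with 0.85 in resistant 2 (SE 0.0719, adjusted p = 8.39e-07). As a response on the CPM scale, CDKN1A was not called in resistant 1 (-0.20, adjusted p = 0.244), fell by 0.39 in resistant 2 (SE 0.117, adjusted p = 0.0269) and rose by 3.38 in parental cells (SE 0.117, adjusted p = 4.2e-13). FOXM1 was not called in resistant 1 (0.18, adjusted p = 0.21), rose by 0.90 in resistant 2 (SE 0.102, adjusted p = 1.26e-05) and fell by 0.58 in parental cells (SE 0.102, adjusted p = 9.96e-05). In treated cells FOXM1 was not called in either resistant population against parental cells (0.08, adjusted p = 0.471 in resistant 1; -0.16, adjusted p = 0.146 in resistant 2). MYBL2 and E2F2 were not among the genes with a restored treated value, so no treated comparison or response is given for them.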

How the data were processed

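RNA was sequenced from 18 libraries with a TruSeq stranded mRNA kit, per the labels' protocols. The submitters' processing notes name FastQC and MultiQC, STAR, featureCounts, DESeq2 and GRCh38 (hg38), with versions and strand setting not given in the sources used here. The authors normalized and deposited DMSO and treated libraries as separate tables. Values in the deposited DMSO table are a signal, counts divided by size factors, and gave back whole reads (100.0000% of values within 0.01). Values in the deposited ATRA and decitabine table are in another unit, since their decimal points are missing. The 9 values of a gene were restored together, as powers of 10 giving whole reads at likely levels, and kept at a posterior of 0.99 or more. This resolved 18832 (74.8%) of 25175 treated genes at the filter and all 38 members (lowest posterior 0.997). With points stripped from the DMSO table, 8 of 144675 values in 6 of 16075 genes came out wrong. This check was not independent, since the model's spreads came from that table. Its likely levels came from the restored treated values, which had themselves been restored with the DMSO levels as a guide. The design written at the start assumed plain normalized values in both tables, and its test was used on the restored ones.

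Log2(normalized count + 1) was compared within a table with limma 3.58.1 (trend, R 4.3.3), for genes reaching 10 normalized counts in 3 or more of 9 libraries, and such changes are understated for low genes. Responses used log2(CPM + 1) of reads scaled by TMM over 18 libraries. Calls were made at a Benjamini-Hochberg adjusted p under 0.05 over all genes tested, and measure the spread between libraries labelled biological replicates, which may be technical. The labels give only replicate numbers. Same-numbered treated and DMSO libraries deviated together from their group means in resistant 1 (r = 0.75, 0.39 and 0.87) and in resistant 2 (0.76, 0.80 and 0.86), as did DMSO libraries of the resistant populations (0.17, 0.64 and 0.59), so the data, not the labels, pair those. No library repeats another (chi-square over degrees of freedom 9.53 to 225 within groups). GENCODE 29, with a second list of gene names for identifiers it lacks, gave symbols to 57447 of 58051 identifiers. Alternatives were edgeR 4.0.16, DESeq2 1.42.0, other scalings, filters and pseudocounts, a replicate block over all libraries or within resistant populations, and leaving out libraries. The fitting code was tested on simulated data. Members and gene lists were chosen with earlier results of these data known. Values per library are given for the members with the lowest and highest log2 change of each role in resistant 2 against parental cells under DMSO, for MKI67, and for the 3 largest and 3 smallest parental responses. Those of CENPI, CENPM and CENPN under DMSO, and the members shown under treatment, were picked after their values were seen. Values per library of CENPE under DMSO and of MAD2L1 in CPM are also given outside that rule. Of the related lists CDKN1A, FOXM1, MYBL2, the 2 most changed genes of each and those called against their list's direction are named, apart from an item that is not reported here.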

Additional observations from a re-analysis of the deposited data

Results flagged for a closer look

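The results here stand out because the response to ATRA and decitabine differed between populations by a test of the difference itself, the interaction term of the limma fit over 18 libraries. In resistant 1 minus parental cells, 22 of 38 members were called, among them CENPH (1.19), SPC25 (0.94) and CDC20 (-0.95). Of these, 21 were higher and 1 lower, while 21% of all genes were called higher and 24% lower. In resistant 2 minus parental cells, 32 members were called, all higher, among them SPC25 (1.75), CENPH (1.63) and MKI67 (1.03). In that comparison 23.9% of all genes were called higher and 26.4% lower. In resistant 1 minus resistant 2, 5 members were called, all lower. That count ran from 2 to 18 when single libraries were left out and was 29 with the replicate number as a block within each resistant population. Of all genes, 1.53% were called lower and 2.92% higher there, or 4.64% and 5.97% with the block. All 3 differences rest on shared libraries. Each response also compares libraries from different deposited tables, on reads scaled together over the 18 libraries. The part of the table in these values was not tested.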

How the results depend on the processing

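Of 7374 member values under alternatives, 7034 kept direction and call, 181 lost and 158 gained a call, and 1 reversed: KIF23 in treated resistant 2 against parental cells, at -0.28 after quantile normalization, against 0.01. Quantile normalization also moved the median of treated resistant 1 against parental cells to -0.69 and that of treated resistant 2 to -1.04. Members higher in treated resistant 1 than in parental cells numbered 2 with a replicate block and 3 with only the compared groups fitted, against 1. Members higher in the parental response numbered 2 with edgeR, DESeq2 or DESeq2 size factors, against 1. With restored genes kept at the stricter posterior (34 members), that response had 3 higher, 15 lower and a median of -0.29, the median of resistant 1 minus parental was 0.39, and 1 member was lower in resistant 2 minus parental; the smaller set of genes changes both members and scaling. Leaving out each library in turn gave 2 to 6 members higher and medians of 0.06 to 0.19 in the resistant 1 response, 1 to 2 higher in the parental response, 5 to 8 lower and medians of 0.16 to 0.45 in treated resistant 1 against resistant 2, and 2 to 18 lower in resistant 1 minus resistant 2. It gave 23 to 35 members higher in the resistant 2 response (32 with all libraries), with medians of 0.53 to 0.72. In the parental response 20 to 23 were lower (24 with all libraries). Same-numbered libraries of different groups deviated together (r over 0.1) in 22 of 45 pairs of libraries (r from -0.69 to 0.87), and the numbers did not consistently pair resistant with parental libraries. Treated and DMSO parental libraries gave r = 0.48, -0.24 and 0.36 for replicates 1, 2 and 3, and a block within parental cells alone was not fitted. With the number as a replicate block within each resistant population, added after seeing the data, members higher numbered 14 in the resistant 1 response (6 without it) and 32 in resistant 1 minus parental (21), and members lower numbered 1 in resistant 2 minus parental (none) and 29 in resistant 1 minus resistant 2 (5); no call was lost. Beyond the 2 members named above, a block common to all populations moved no count of members by over 1.5 times, and between the resistant populations under DMSO a block over their 6 libraries changed no call.

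With 3 libraries a group, a gene not called is not shown to be unchanged. Treated values are restored for 74.8% of the treated genes at the filter, so percentages over all treated genes leave out many lowly expressed genes.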
